A study of Mus musculus with 4 samples.

Results

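The keratin and adhesion genes Krt7, Krt8, Krt18, Krt19, Epcam, Cdh1 and Cdh16 were followed through the cell types of the developing mouse thyroid. They were taken by symbol as 7 of the 32285 genes in the count matrices, and each matched 1 gene. Keratins build the intermediate filaments of simple epithelia as pairs of a type II chain (Krt7, Krt8) and a type I chain (Krt18, Krt19), and the chains are tied to cell junctions through desmosomes. Cdh1, E-cadherin, holds neighboring epithelial cells together at adherens junctions through the catenins, Cdh16 is a cadherin of kidney and thyroid epithelium that has only a short intracellular tail, and Epcam is a surface adhesion protein of most simple epithelia. In the thyroid, follicular cells (thyrocytes) make thyroid hormone from thyroglobulin (Tg) around a lumen, and C cells make calcitonin (Calca) beside the follicles.

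The study asked how thyrocytes build follicles after birth, with attention to their migration and, beside it, to cell adhesion. Thyroids came from C57BL/6 mice (C57 in the sample labels) of postnatal day 5, 10, 20 and 30, with no treatment or transgene stated, and the tissue of 10 mice was pooled into 1 library per age. Cells were dissociated, dead cells were removed and droplet 3' libraries were sequenced. Since each age had 1 library, no test across ages was made. For differences in level between cell types, all tested classes of the 4 libraries entered 1 fit, the non-epithelial classes included. Standard errors and p-values of that fit rest on a spread shared by all these classes. They do not measure the spread of a single difference over the 4 libraries, and no age was replicated.

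The libraries held 54921806 to 89039113 unique molecular identifiers (UMIs, 1 per captured RNA molecule), and 27766 cells were kept. Cells were classed by markers that include none of the 7 genes. The classes held 2717, 590, 354 and 533 follicular cells in the libraries labelled day 5, 10, 20 and 30, the order in which values by library are given throughout. C cells numbered 85, 78, 30 and 52, parathyroid cells 36, 16, 25 and 23, and 20070 cells fell into 7 non-epithelial classes (endothelial, fibroblast, stromal or mural, macrophage, T, B and dendritic). The class gates used Tg and Calca, so that their levels describe the classes and are no test of them. Tg took 35159 to 67780 UMIs of every 1000000 (CPM) in follicular cells against 355 to 1181 CPM in C cells, and Calca took 259345 to 294075 CPM of C cells against 62.5 to 120 CPM in follicular cells. Between 12 and 30 cell barcodes were shared by any pair of libraries. Of the called barcodes labelled day 10, 20 and 30, 97.4% to 98.8% also had UMIs in each other's matrices. In the matrix labelled day 5, 40.3% to 41.9% of them had UMIs. Of those labelled day 5, 33.6% to 49.9% had UMIs in each of the other matrices. The library labelled day 5 thus stood apart, and what this does to levels between libraries was not tested. The data went against the library labels in 1 gene: H19, a fetal gene that is silenced after birth, stood at 1.37, 76.8, 20.6 and 256 CPM of free RNA (droplets without a cell), thus highest in the library labelled day 30. The cell numbers also went against the labels. The methods of the study describe the most cells, after its filters, at postnatal day 30. Here the library labelled day 5 had the most called barcodes before filtering and that labelled day 30 the fewest, 15297 and 6555. The filters used here, which differ from those of the study, left 11951 and 4586 cells, again the most and the fewest. The cause was not tested, and every direction between libraries below rests on the labels as given.

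Krt7, Krt8 and Krt18 lie on mouse chromosome 15 (GRCm38, GENCODE). Krt7 spans positions 101411043 to 101430313 on the plus strand, Krt8 spans 101996698 to 102004482 on the minus strand and Krt18 spans 102028180 to 102032027 on the plus strand. Krt8 and Krt18 thus start 23698 bases apart and point away from each other. Krt19 lies on chromosome 11 (100140810 to 100148665, minus strand) and Epcam on chromosome 17 (87635979 to 87651129, plus strand). Both cadherins lie on chromosome 8, Cdh16 at 104601911 to 104624396 on the minus strand and Cdh1 at 106603351 to 106670246 on the plus strand. Krt7 and Krt8 each overlap 1 predicted gene on the opposite strand.

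RefSeq promoters of GRCm38.p6, from 250 bases before to 50 bases after the start, were at hand for 4 of the 7 genes (Krt7, Krt8, Krt18 and Epcam). The start is that of RefSeq, which for Krt7, Krt8 and Krt18 is not the start of the span given above. The whole Krt7 window lies inside the Krt7 span. The 3 promoters of chromosome 15 are shown because Krt8 and Krt18 varied together across cells while Krt7 was the keratin called lower in Mia-positive cells. They cover chr15:101412153-101412452 (Krt7, plus strand), chr15:102004293-102004592 (Krt8, minus strand) and chr15:102027966-102028265 (Krt18, plus strand), and capitals mark matches of the GC box GGGCGG or the TATA box TATAAA on either strand.
Krt7: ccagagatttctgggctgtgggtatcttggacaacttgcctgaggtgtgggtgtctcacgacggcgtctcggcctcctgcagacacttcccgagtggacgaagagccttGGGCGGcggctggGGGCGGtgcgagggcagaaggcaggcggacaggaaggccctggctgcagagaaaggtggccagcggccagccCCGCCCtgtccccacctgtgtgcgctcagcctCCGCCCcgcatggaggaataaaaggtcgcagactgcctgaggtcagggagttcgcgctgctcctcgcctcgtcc
Krt8: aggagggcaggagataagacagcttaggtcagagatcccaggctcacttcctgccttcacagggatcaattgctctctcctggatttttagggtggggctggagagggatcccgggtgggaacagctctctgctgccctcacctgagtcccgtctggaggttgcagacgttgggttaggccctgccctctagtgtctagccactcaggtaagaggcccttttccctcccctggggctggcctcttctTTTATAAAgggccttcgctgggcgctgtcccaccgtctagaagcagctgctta
Krt18: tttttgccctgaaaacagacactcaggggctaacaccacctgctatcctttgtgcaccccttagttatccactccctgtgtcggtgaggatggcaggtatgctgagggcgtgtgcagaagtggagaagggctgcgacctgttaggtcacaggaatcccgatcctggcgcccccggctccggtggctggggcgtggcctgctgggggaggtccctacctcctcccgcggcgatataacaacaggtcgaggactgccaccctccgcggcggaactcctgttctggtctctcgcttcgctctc
The Krt7 window held 4 GC boxes, at -141, -128, -56 and -24 from the start, and the Epcam window held 1, at -58. GGGCGG occurred in 35.7% of 32851 RefSeq promoters of the same length. TATAAA occurred in the Krt8 window only, as 2 overlapping matches on opposite strands at -3 and -1, and in 13.6% of all promoters. The AP-1 element TGANTCA, found in 7.81% of promoters, and the NKX2-1 core CAAGTG, found in 13.6%, had no match in the 4 windows. CpG dinucleotides numbered 21 in Krt7, 6 in Krt8, 17 in Krt18 and 11 in Epcam, against a median of 7 over all promoters. None of the 4 searched motifs occurred in both the Krt8 and the Krt18 window.

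Most UMIs of all 7 genes lay in follicular cells. Follicular cells held from 77.8% (Epcam) to 91.0% (Cdh16) of the UMIs that each gene had in kept cells. C cells held 8.20% of those of Epcam but 0.0709% of those of Cdh16 and 0.195% of those of Krt19. Each level was far lower in the non-epithelial classes, where most sums of a class and library lay below 20 CPM.

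**Figure D1:**
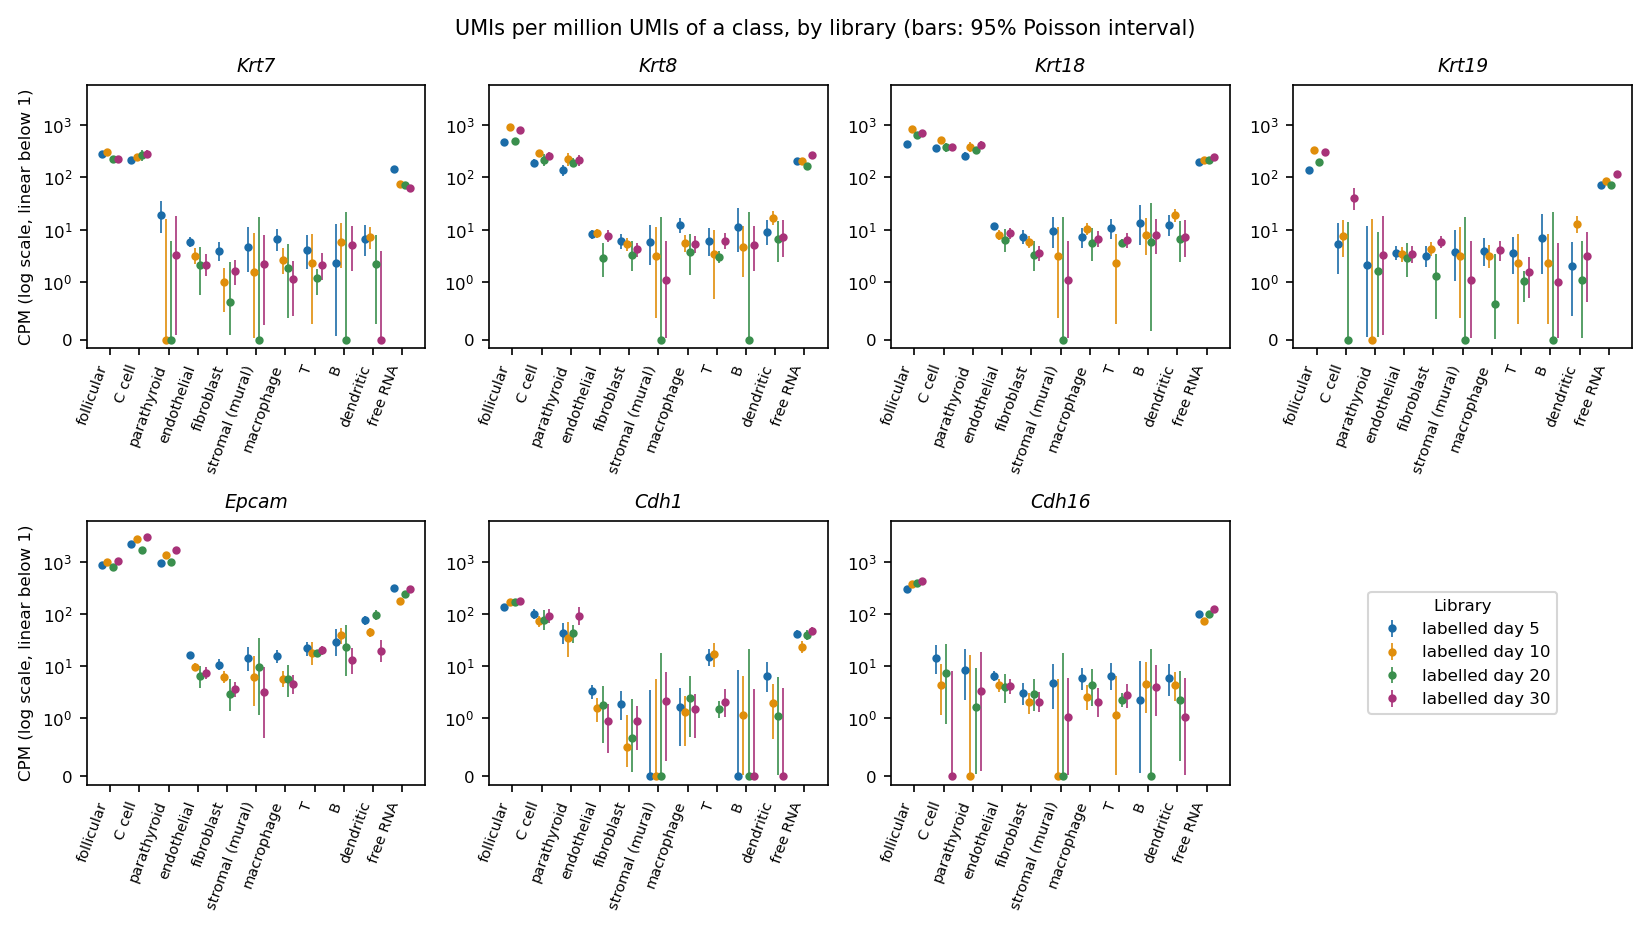
Levels of the 7 genes by class, as CPM on a scale that is logarithmic above 1 and linear below, with 1 point per library and 95% Poisson intervals that cover counting error only. Follicular cells stand at 135 to 1036 CPM for every gene, C cells stand above them for Epcam (1699 to 2903 CPM) and at no more than 39.5 CPM for Krt19 and Cdh16, and parathyroid cells stand at no more than 18.6 CPM for Krt7, Krt19 and Cdh16.

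Against the non-epithelial classes, weighted equally, the follicular levels of all 7 genes were higher (edgeR's quasi-likelihood test with Benjamini-Hochberg adjustment over 13935 genes). In this contrast 36.0% of all genes tested were called higher. The log2 differences ran from 5.91 ± 0.19 for Epcam to 6.78 ± 0.28 for Cdh1 (± SE, from the shared fit of 36 sums of class and library). The adjusted p was at most 9.28e-20, that of Cdh1 (edgeR). The median over the 7 genes was 6.37, beside 0.05 over all genes. No alternative processing changed a call.

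The low levels outside the epithelium were set beside free RNA, since droplets also capture RNA released by other cells. In the 28 sums of non-epithelial classes, the median level was between 2.42% (Krt8) and 4.75% (Epcam) of the level in free RNA, against 3.59% for Tg, which these cells should lack. Tg is a marker of the follicular gate, and cells that also passed this gate were kept out of these classes. Its share is thus limited by the choice of cells, in which the 7 genes were not used. The highest share of Tg in any of these sums was 7.45%. Epcam and Cdh1 had sums furthest above it, and the 4 keratins exceeded it in the dendritic cells labelled day 10 (8.28% for Krt8 to 14.8% for Krt19), where Tg was at 6.23%. In B cells, Krt7 reached 7.83% and 8.01% (labelled day 10 and day 30) and Krt19 9.46% (labelled day 5). These B cell values rest on 5, 5 and 3 UMIs, so that their counting error is large. Epcam reached 75.2, 44.6, 96.4 and 19.8 CPM in dendritic cells, or 24.0%, 25.2%, 39.6% and 6.52% of its level in free RNA, and 22.0% in the B cells labelled day 10. Epcam is also known as a surface protein of Langerhans cells, a dendritic cell type of epithelia. Cdh1 stood at 15.2 and 17.0 CPM in T cells labelled day 5 and day 10, but at 1.49 and 2.08 CPM in those labelled day 20 and day 30. The first pair corresponds to 36.6% and 72.9% of its level in free RNA, and the second pair to 3.73% and 4.37%. The T class was not alike across libraries. With a stricter class gate 268 of 675, 58 of 214, 3556 of 4019 and 1167 of 1257 T cells remained.

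Between follicular cells and C cells, 3 of the 7 genes were higher in follicular cells (Krt8, Krt19 and Cdh16), 1 was lower (Epcam) and 3 did not pass the test (Krt7, Krt18 and Cdh1), where 26.3% of all genes tested were called higher and 16.5% lower. The type I keratin Krt19 and the thyroid cadherin Cdh16 differed most. Krt19 stood at 141, 337, 194 and 309 CPM in follicular cells and at 5.24, 7.48, 0 and 39.5 CPM in C cells. A count of 0 in the C cells labelled day 20 allows up to 11.1 CPM. The 39.5 CPM came from 18 UMIs in 4 cells, of which 1 cell held 12 UMIs together with all 17 Krt15 and all 15 Krt17 UMIs of these C cells, and 9595 Calca UMIs. Without that cell the Krt19 level of the library was 14.1 CPM. Follicular cells were higher by 4.18 ± 0.45 on the log2 scale (adjusted p = 5.34e-09, edgeR), and no library overlapped.

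Cdh16 stood at 301, 376, 390 and 424 CPM in follicular cells and at 14.4, 4.27, 7.40 and 0 CPM in C cells. The difference was 5.67 ± 0.38 on the log2 scale (adjusted p = 1.63e-13, edgeR). Against the non-epithelial classes, C cells did not pass the test for Cdh16 (1.08 ± 0.47, adjusted p = 0.0556, edgeR), although they did so with DESeq2 (1.26, adjusted p = 0.0218). Cdh16 also passed in edgeR without the library labelled day 30, in which C cells held 0 Cdh16 UMIs. With all 4 libraries Krt19 passed the test at 2.02 ± 0.52 (adjusted p = 0.00156, edgeR). This Krt19 call was lost without the library labelled day 30 (0.82, adjusted p = 0.328) and with an upper limit of 10000 UMIs per cell (0.18). Neither exceeded 39.5 CPM in C cells, beside 70.5 to 118 CPM of Krt19 and 71.5 to 122 CPM of Cdh16 in free RNA.

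The type II keratin Krt8 was lower in C cells by a smaller amount. It stood at 483, 910, 501 and 801 CPM in follicular cells and at 189, 297, 215 and 261 CPM in C cells, with every follicular value above every C cell value. The difference was 1.28 ± 0.24 on the log2 scale (adjusted p = 6.14e-05, edgeR). Its partner Krt18 stood at 440, 835, 649 and 719 CPM in follicular cells and at 366, 518, 374 and 380 CPM in C cells, so that the ranges overlapped. Krt18 differed by 0.51 ± 0.23 and did not pass the test (adjusted p = 0.0802).

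Krt7, the other type II keratin, stood at 280, 300, 226 and 226 CPM in follicular cells and at 212, 244, 263 and 285 CPM in C cells. These ranges overlapped almost fully, with a difference of -0.19 ± 0.27 (adjusted p = 0.627, edgeR) that turned positive without scaling factors (0.01) or with the upper UMI limit (0.01). Cdh1 stood at 135, 171, 170 and 178 CPM in follicular cells and at 99.6, 71.6, 77.8 and 92.2 CPM in C cells. Every follicular value of Cdh1 lay above every C cell value, but its difference of 0.84 ± 0.38 did not pass the test (adjusted p = 0.0782). Cdh1 and Krt18 passed it without TMM factors (adjusted p = 0.0258 and 0.0142) and without the filter on low counts (0.0282 and 0.0309). Cdh1 also passed with the stricter class gate (0.0454), and Krt18 without the library labelled day 5 (0.033) and with the upper UMI limit (0.0325).

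Epcam was the 1 gene of the 7 that was lower in follicular cells. It stood at 861, 967, 796 and 1036 CPM in follicular cells and at 2146, 2687, 1699 and 2903 CPM in C cells, without overlap. The log2 difference was -1.59 ± 0.31 (adjusted p = 1.05e-04, edgeR). The median difference over all genes was 0.26 with TMM factors, 0.46 without them and -0.05 with DESeq2, so that differences below about this size depend on the scaling. Calca took 259345 CPM or more in the C cells of every library, which lowers the CPM of every other gene there.

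**Figure D2:**
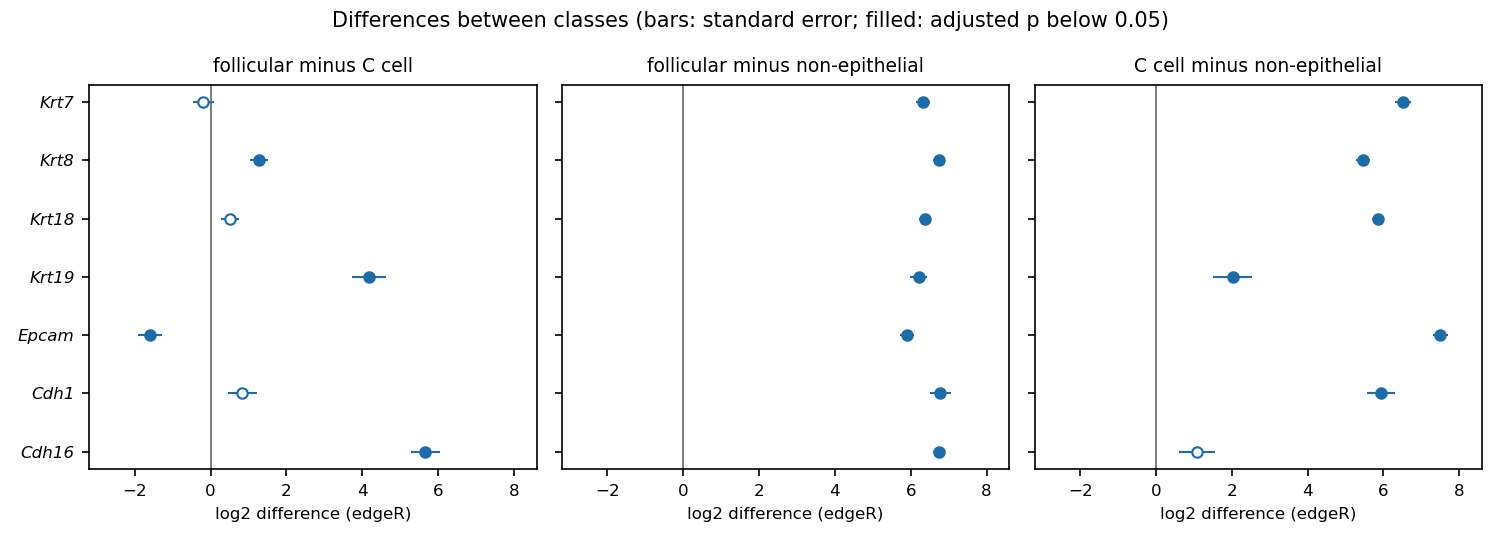
Log2 differences between classes for the 7 genes from edgeR, with the standard error as bars and filled points for an adjusted p below 0.05. Follicular cells exceed the non-epithelial classes by 5.91 to 6.78 for every gene, whereas C cells reach 7.50 for Epcam but 2.02 for Krt19 and 1.08 for Cdh16.

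In C cells, 6 of the 7 genes were higher than in the non-epithelial classes, where 25.3% of all genes were called higher. The log2 differences were 7.50 ± 0.19 for Epcam, 6.52 ± 0.21 for Krt7, 5.94 ± 0.37 for Cdh1, 5.86 ± 0.16 for Krt18, 5.47 ± 0.18 for Krt8 and 2.02 ± 0.52 for Krt19. Parathyroid cells, too few for the test, are given as values. They held Epcam at 940 to 1641 CPM, Krt18 at 255 to 418 CPM, Krt8 at 137 to 222 CPM and Cdh1 at 34.9 to 92.3 CPM. Krt7, Krt19 and Cdh16 were at 0 to 18.6, 0 to 3.29 and 0 to 8.28 CPM there. Of the 3 epithelial cell types, C cells thus shared Krt7 with follicular cells, and neither C cells nor parathyroid cells held Krt19 or Cdh16 at more than 39.5 CPM.

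Ratios of 2 genes within the same sum do not depend on the total of a class. Krt8 had 1.10, 1.09, 0.772 and 1.11 UMIs per Krt18 UMI in follicular cells and 0.516, 0.573, 0.574 and 0.688 in C cells, with 0.512 to 0.586 in parathyroid cells. Cdh16 had 2.24, 2.20, 2.29 and 2.38 UMIs per Cdh1 UMI in follicular cells, a range of little spread, and 0 to 0.145 in C cells. Cdh1 had 0.156 to 0.214 UMIs per Epcam UMI in follicular cells and 0.0266 to 0.0464 in C cells. Each of these ratios was higher in follicular cells in 4 of 4 libraries, with an exact two-sided permutation p of 0.125, the smallest that 4 pairs allow. The same p, before and after Benjamini-Hochberg adjustment over the 5 ratios compared, applied to Krt19 per Krt18, higher in follicular cells in 4 of 4 libraries, and to Krt7 per Krt8, lower in 4 of 4.

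The junction partners and regulators of these genes were counted from lists of 52 genes. Of the 7 adherens junction partners, 6 were higher in follicular than in C cells and 0 were lower (5 with DESeq2, which lost Jup, and 7 without TMM factors, which added Ctnnb1), with Ctnna1, which couples the cadherin complex to actin, at 2.41 and Nectin2 at 1.72 (log2, adjusted p = 1.03e-10 and 7.00e-06, edgeR). Of the 10 desmosome and keratin linkers, 8 were higher and 0 lower (8 and 1 with DESeq2, which called Pkp4 lower), among them Perp at 3.67, Dsc2 at 3.09 and Dsp, the plaque protein that anchors keratins, at 2.66. Dsp stood at 88.8 to 139 CPM in follicular cells and at 3.70 to 25.6 CPM in C cells. All 4 tested epithelial regulators of 5 were higher, of which Esrp1 was not called with DESeq2, and Grhl2 was at 0 UMIs in the C cells of every library against 24.1 to 38.0 CPM in follicular cells. The list medians were 1.30 for adherens partners, 2.21 for desmosome genes and 1.58 for the regulators, beside 0.26 over all genes, of which 26.3% were called higher and 16.5% lower.

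Among the partners of Epcam, Cldn7 was higher in follicular cells (not with DESeq2) and Spint2, a protease inhibitor of the cell surface, was lower (-1.30, adjusted p = 0.00539, edgeR), like Epcam. Of 9 other cadherins 6 were tested: Cdh4 was higher by 5.76, at 66.3 to 150 CPM in follicular cells and 0 to 4.27 CPM in C cells, and Cdh2 was lower, at 0 to 0.257 CPM in follicular cells and 0 to 7.48 CPM in C cells. With DESeq2, Cdh6 and Cdh11 were also called lower. Of 11 other keratins only Krt10 and Krt80 had enough counts for the test, and Krt10 was lower by 1.04 log2 units at 27.0 to 43.4 CPM against 37.0 to 69.4 CPM in C cells. Among the 6 mesenchymal regulators, Zeb1 alone was called under each of the 3 scalings, lower in follicular than in C cells by 3.72 log2 units. It stood at 1.61 to 4.90 CPM in follicular cells and at 21.9 to 51.8 CPM in C cells.

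Against the non-epithelial classes, the list medians of follicular cells were 1.20 for adherens partners, 5.45 for desmosome genes and 7.10 for the regulators, beside 0.05 over all genes. Higher were 5 of 7 adherens partners, 9 of 10 desmosome genes, 4 of 4 tested regulators and the Epcam partners Cldn7, Spint1 and Spint2, with none of these lists holding a lower gene under any of the 3 scalings. Of the 6 mesenchymal genes 5 were lower, with Vim, the filament protein of mesenchymal cells, at -5.73 and 20.1 to 38.5 CPM in follicular cells. C cells had 3 adherens partners higher and 2 lower, 8 desmosome genes higher and 1 lower, and 4 mesenchymal genes lower (3 with DESeq2, which lost Zeb1). For comparison, 36.0% of all genes were called higher and 25.2% lower in follicular cells, and 25.3% higher and 25.4% lower in C cells.

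Within follicular cells, levels differed between libraries by amounts that counting error does not cover. In the library labelled day 30 over that labelled day 5, 3 of the 7 genes were higher by at least 1.5-fold and 0 were lower, where 21.8% and 5.98% of 9111 genes passed that fold and the median log2 ratio was 0.25. With the upper limit of 10000 UMIs, Krt7 was lower by that fold as well, falling from 310 CPM (labelled day 5) to 195 CPM (labelled day 30), where 10.7% of all genes were lower. Krt19 led with a log2 ratio of 1.14 (interval 1.07 to 1.20), followed by Krt8 at 0.73 (0.69 to 0.76) and Krt18 at 0.71 (0.67 to 0.75). Cdh16 was at 0.49, Cdh1 at 0.41, Epcam at 0.27 and Krt7 at -0.31. These intervals cover counting error only, and with 1 library per age they carry no biological spread. The direction rests on labels that H19 contradicts: with the labels of these libraries exchanged, every ratio would change its sign, and Krt8, Krt18 and Krt19 would be lower at the later age.

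The order of the libraries was not that of the labelled ages for any keratin, except that Krt7 fell in labelled order with the upper UMI limit (310, 291, 220 and 195 CPM). Krt8, Krt18 and Krt19 were lowest in the library labelled day 5 and highest in that labelled day 10, with log2 ratios between these libraries of 0.91, 0.93 and 1.26. Among cells with at most 5% mitochondrial UMIs, however, Krt8 and Krt18 were highest in the library labelled day 20 (944 and 1067 CPM), and with the upper UMI limit Krt8 was lowest there (457 CPM). Between the libraries labelled day 30 and day 10, 0 of the 7 genes passed the fold, where 3.73% of all genes passed it in either direction. Between those labelled day 20 and day 5, 0 of the 7 passed it, against 25.1% of all genes. This count depended on the processing: Krt18 was higher by the fold with doublets kept, with each cell weighted equally and without Tg, hemoglobin and mitochondrial genes in the total (16.6%, 11.5% and 22.1% of all genes), and Krt8, Krt18 and Krt19 with at most 5% mitochondrial UMIs (24.1%). In the remaining pairs, Krt8, Krt18 and Krt19 were higher by the fold in the library labelled day 10 than in that labelled day 5, like 16.8% of all genes. Krt8 and Krt19 were lower by it from day 10 to day 20 as labelled (7.30% of all genes) and higher from day 20 to day 30 (8.85%). With at most 5% mitochondrial UMIs neither gene passed in these last 2 pairs, and Krt7 was lower by the fold from day 20 to day 30 (like 9.15% of all genes under that limit and 5.11% with up to 10%). Cdh16 stood at 301, 376, 390 and 424 CPM, in labelled order, but not with the upper UMI limit (307, 428, 337 and 411 CPM) or with each cell weighted equally (313, 381, 362 and 405 CPM). Cdh1 was lowest at 135 CPM in the library labelled day 5 and between 170 and 178 CPM in the others. The intervals of Cdh1 in those 3 libraries overlapped (163 to 179, 161 to 180 and 172 to 185 CPM). With the upper UMI limit Cdh1 stood at 129, 147, 131 and 128 CPM, so that the library labelled day 5 was no longer lowest, and with each cell weighted equally it stood at 133 to 151 CPM.

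**Figure D3:**
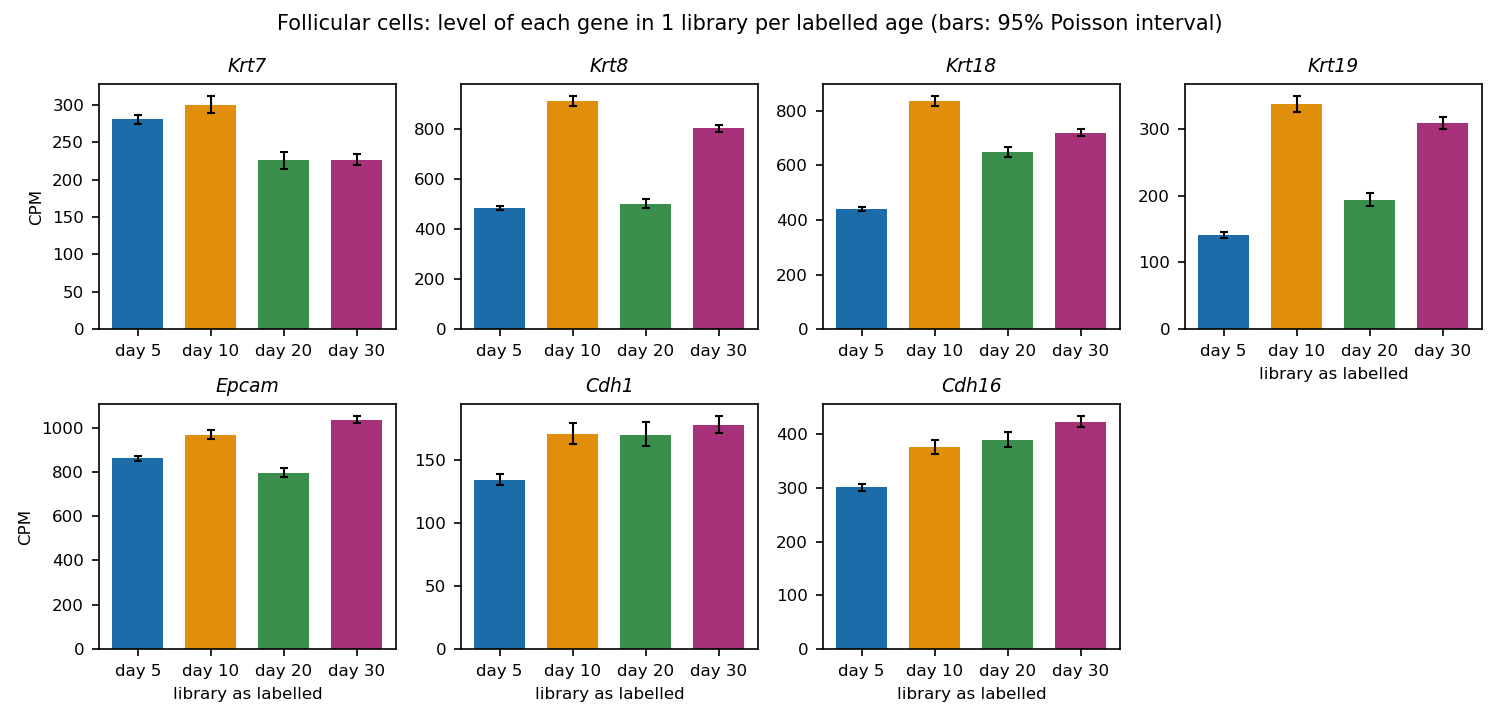
CPM of each gene in follicular cells of the 4 libraries, 1 bar per library, with 95% Poisson intervals for counting error. Krt8 and Krt19 are high in the libraries labelled day 10 and day 30 and low in those labelled day 5 and day 20, Cdh16 lies between 301 and 424 CPM, in an order that other processing changes, and Krt7 is highest where it reaches 300 CPM, labelled day 10.

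Depth and mitochondrial share moved with the library. Follicular cells had a median of 8227, 11444, 14671 and 18160 UMIs, and 23.5%, 34.4%, 81.6% and 46.7% of them had over 5% mitochondrial UMIs. In the library labelled day 20 the 65 follicular cells with at most 5% held Krt8 at 944 CPM and the 289 others at 439 CPM, a 2.15-fold difference. In the same split Krt18 differed 1.81-fold, Krt19 1.64-fold and Krt7 1.53-fold, while Epcam (1.05-fold), Cdh1 (0.96-fold) and Cdh16 (0.955-fold) were nearly level. Actb, the cytoskeletal actin, differed 1.63-fold in this split, as much as Krt19 and Krt7. The 65 cells were shallower (median 4608 UMIs) than the 289 others (16729), whereas in each of the other libraries the cells with at most 5% had the higher median. In the other libraries the keratins differed 0.816- to 1.19-fold. Fos and Jun, early response genes that cell dissociation is known to induce, were higher in the cells with fewer mitochondrial UMIs in all 4 libraries, 1.93- to 3.09-fold and 2.05- to 2.81-fold. The part of dissociation, depth or mitochondrial share in these levels was not tested, and the split was chosen after the data were seen.

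Among the junction partners, the library labelled day 30 exceeded that labelled day 5 by at least 1.5-fold for 4 of 7 adherens partners, 5 of 10 desmosome genes and 3 of 4 measured regulators, and none was below by that fold, beside 21.8% and 5.98% of all genes. Ctnnb1, beta-catenin, stood at 135, 281, 179 and 313 CPM and was thus, like Krt8 and Krt19, higher in the libraries labelled day 10 and day 30 than in those labelled day 5 and day 20, although its highest value was in that labelled day 30. Cdh4 had a log2 ratio of 1.18 and Krt80 of 1.59, the latter at 4.49 to 15.4 CPM. Cldn7, Spint1 and Spint2 did not pass the fold. Neither did Vim, at 20.7 and 20.1 CPM.

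To compare how many cells had a UMI, 2000 UMIs were drawn at random from each cell. Follicular cells with fewer UMIs, 167, 78, 30 and 30 by library, were left out. Epcam was seen in 80.5%, 85.4%, 83.6% and 86.7% of follicular cells, against 0.809% to 2.66% of endothelial cells, which should lack it. Krt8 was seen in 55.1%, 77.0%, 56.8% and 73.0% of follicular cells and Krt18 in 51.6%, 72.7%, 70.7% and 71.2%. Cdh16 was seen in 44.0% to 52.1%, Krt7 in 31.8% to 39.0%, Krt19 in 24.2% to 45.3% and Cdh1 in 23.4% to 25.8%. In C cells Epcam was seen in 93.2% to 100% and Krt19 and Cdh16 in 0% to 2.70%. Without thinning the shares were higher for every gene, from 63.5% to 91.2% for Krt19 and from 64.5% to 82.7% for Cdh1 to 96.0% to 97.7% for Epcam, which was then seen in 3.91% to 4.96% of endothelial cells.

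Within each library, each of the 4 keratins varied more among follicular cells than Epcam, Cdh1 or Cdh16 did, although the ranges over libraries overlapped. At 5000 UMIs per cell, where pure counting gives a variance equal to the mean, variance over mean was 4.73, 5.84, 1.64 and 3.29 for Krt8 and 6.76, 5.66, 2.31 and 3.46 for Krt18. It was 1.40 to 3.35 for Krt7 and 1.48 to 2.77 for Krt19. Epcam was at 1.13 to 1.90, Cdh16 at 1.17 to 1.65 and Cdh1 at 0.955 to 1.10, so that Cdh1 hardly exceeded counting. For an equal relative difference between cells, variance over mean rises with the mean. Cdh1 had a mean of 0.633 to 0.825 UMIs per cell against 4.03 to 5.52 for Epcam. Its low value thus does not show that Cdh1 was more even than Epcam. Single cells reached 75 UMIs of Krt8 or Krt18 of their 5000, where the highest Cdh1 count was 5.

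**Figure D4:**
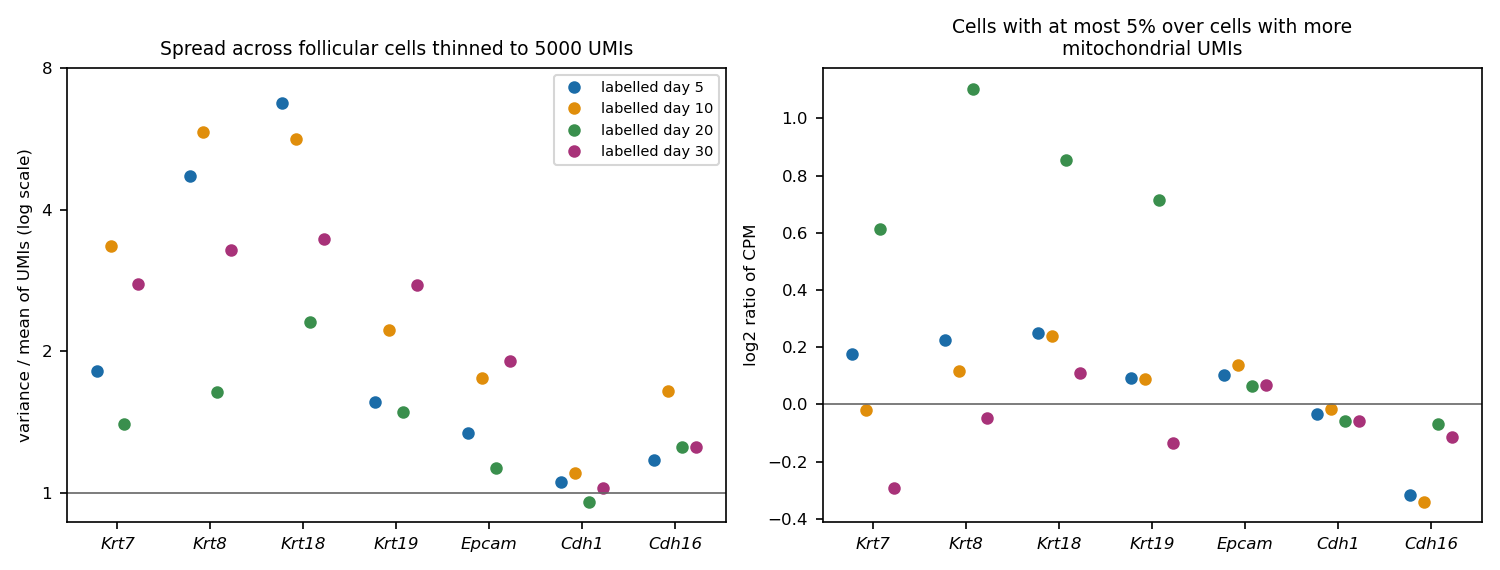
Left, variance over mean of UMIs across follicular cells thinned to 5000 UMIs, 1 point per gene and library on a log scale, with a line at 1 for pure counting. Right, log2 ratio of CPM in follicular cells with at most 5% mitochondrial UMIs over those with more, where the 4 keratins of the library labelled day 20 stand at 0.61 to 1.10 and Cdh1 lies between -0.06 and -0.01 in every library.

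Krt8 and Krt18 varied together. Across follicular cells of 1 library, all at 5000 UMIs, Pearson's r was 0.754, 0.741, 0.356 and 0.573 over 2152, 466, 298 and 487 cells, and Spearman's rho was 0.274, 0.338, 0.195 and 0.401. The larger Pearson values rest in part on cells with very many UMIs of both. Krt8 with Krt19 gave r of 0.302, 0.511, 0.140 and 0.540, and Krt7 with Krt8 0.207, 0.576, 0.0636 and 0.481. Cdh1 and Cdh16 showed little relation (0.00532 to 0.0684), and Krt8 with Cdh16 was negative in all 4 libraries (-0.158 to -0.0632). These correlations describe cells that share a library and its free RNA.

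Over the 36 sums of class and library, the genes most like each of the 7 by Pearson's r of log2(CPM + 1) were as follows. Krt8 and Krt18 were each the nearest to the other (r = 0.98) among 13904 genes. Cldn7, a claudin of the basolateral membrane, came first for Krt7 (0.97) and was the next for Krt8. Tg was among the 3 nearest to Cdh16 (0.95), but it is a marker that set the classes of these sums. Nearest to Krt19 were Lypd2, Epn3 and Upk3bl (0.93 to 0.94), to Epcam Capsl, Arg2 and Prr15l (0.94 to 0.95), and to Cdh1 Rec8, Kdf1 and Esrp1, a splicing regulator of epithelia (0.94 to 0.96).

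Follicular cells with and without Mia, a secreted protein known from melanoma and cartilage, differed in 2 of the 7 genes: Krt7 was lower and Cdh16 higher in the positive cells (edgeR, adjusted p below 0.05). In this comparison 0.650% of 6618 genes tested were called lower and 1.10% higher. Mia-positive cells had at least 2 Mia UMIs after thinning to 2000 and numbered 54, 25, 7 and 14, and Mia-negative cells had none and numbered 2386, 464, 308 and 472. The library labelled day 20 was left out of the test with its 7 positive cells. Krt7 stood at 83.3, 60 and 107 CPM in Mia-positive and at 295, 331 and 257 CPM in Mia-negative cells of the libraries labelled day 5, 10 and 30, without overlap. It was lower by 1.96 ± 0.34 log2 units (adjusted p = 1.63e-06, edgeR), and the call held under all alternatives that could be run, at -2.19 to -0.93. The positive values rest on 9, 3 and 3 UMIs, and in the library labelled day 20, outside the test, 3 UMIs gave 214 CPM against 247 CPM.

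Cdh16 stood at 528, 780 and 821 CPM in Mia-positive and at 315, 347 and 395 CPM in Mia-negative cells, again without overlap. It was higher by 0.86 ± 0.20 log2 units (adjusted p = 0.00186, edgeR). That call was lost with DESeq2 (adjusted p = 0.0897), without the library block (0.338), without the library labelled day 10 (0.506), at 4 or more Mia UMIs (0.126) and without the filter on low counts (0.136).

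The other 5 genes did not pass the test. Krt18 was at -0.69 ± 0.21 (adjusted p = 0.0511) and Krt8 at -0.62 ± 0.20 (adjusted p = 0.108, edgeR), and both passed it without the library labelled day 5 (0.0015 and 0.00463). Other settings also called more of the 7 genes lower than Krt7 alone. These were 3 without the filter on low counts (81 of 16693 genes tested), 2 at 4 or more Mia UMIs (38 of 6676) and 4 without thinning (365 of 11781). Epcam was at 0.26, Krt19 at -0.07 and Cdh1 at -0.02. Calca was at 111, 140 and 179 CPM in Mia-positive and 108, 138 and 71.0 CPM in Mia-negative cells. Mia-positive cells had more UMIs before thinning (medians 9033, 13770 and 27845 against 8535, 12802 and 21125), most clearly in the library labelled day 30.

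**Figure D5:**
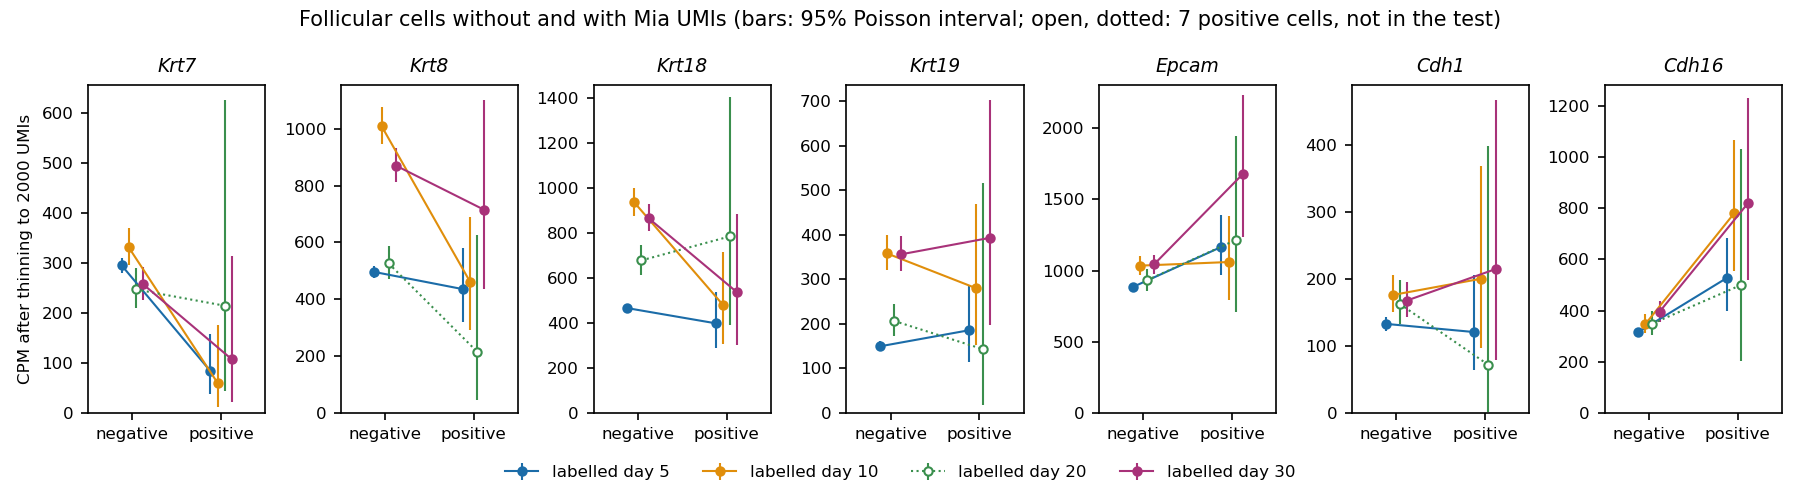
CPM of the 7 genes in Mia-negative and Mia-positive follicular cells after thinning to 2000 UMIs per cell, with lines joining the groups of 1 library and 95% Poisson intervals. Krt7 is lower and Cdh16 higher in the positive cells of the 3 libraries tested, and the library labelled day 20, drawn open and dotted, has 7 positive cells.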

How the data were processed

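Droplet 3' libraries of pooled mouse thyroid were processed by the authors with CellRanger against mm10. The deposited matrices hold UMI counts per gene and cell, not normalized. The submitters' processing notes name Seurat 3.6.3 and 3.1.4. From a second deposited table only its list of called barcodes (37503, with repeats for 124) was used, and 0 columns of other samples were present.

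The 7 genes, the gene lists and the tests were chosen with earlier results of these data known. Cells with at least 1000 UMIs, at most 10% mitochondrial and at most 5% hemoglobin UMIs were kept, and the 6% with the highest Scrublet scores were removed (Python 3.11.15, scanpy 1.11.5). Cells were classed by marker UMIs per 10000 UMIs (at least 100 for follicular cells, 1000 for C cells and parathyroid cells), with gates set after the data were seen and none of the 7 genes used. Free RNA held 123 follicular marker UMIs per 10000, and 484 cells lay within 1.5-fold of the follicular gate, 243 of them above it. UMIs were summed per class and library and tested with edgeR 4.0.16 (R 4.3.3; quasi-likelihood, TMM, filterByExpr, library as a block) with Benjamini-Hochberg adjustment over all genes and a threshold of 0.05. Classes with at least 20 cells in every library entered, and DESeq2 1.42.0 was an alternative, as was the limit of 10000 UMIs per cell stated in the methods of the study, under which 61.5%, 41.2%, 27.7% and 21.2% of follicular cells remained. Mia groups needed 10 cells each per library. Ratios between libraries used a pseudocount of 0.5 UMIs and genes with at least 10 CPM, and a fold of 1.5 marked a difference. Intervals are 95% Poisson or binomial and, like the floor of 3 UMIs for a count of 0, cover counting error only. Named genes are the 7, listed partners past a test or fold, class markers, and the 3 genes most like each of the 7 among those with at least 10 CPM in a sum. Leading genes of unassigned cells, and single listed genes given as values, were named after their values were seen. The results of 1 listed gene are not reported here.

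On simulated counts for follicular minus C cell (11524 genes), 83% of 4-fold and 49% of 2-fold changes were recovered with 7 false calls. For the Mia groups (6102 genes) these were 62%, 17% and 2.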

Additional observations from a re-analysis of the deposited data

Results flagged for a closer look

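Cells that no marker list placed in a class also held these genes. Of 1696 unassigned cells, 184 (10.8%, exact binomial interval 9.41 to 12.4%) had at least 10 UMIs of the 7 genes per 10000 UMIs, against 0.41% of endothelial cells, 0.168% of fibroblasts, 0.384% of macrophages and 0.114% of T cells, and this excess over the non-epithelial classes is why they are described. By library, in the order of the labelled ages, there were 27, 52, 17 and 88 such cells (3.51%, 12.7%, 8.17% and 28.6% of the unassigned cells), with a median of 1970.5 UMIs. Since the 7 genes chose these cells, their levels are a description: Epcam stood at 1165 CPM, Krt18 at 883, Krt8 at 865 and Cdh16 at 176. Tg stood at 4216 CPM, below the 35159 CPM or more of follicular cells. The thyroid factors Pax8 and Nkx2-1 stood at 190 and 337 CPM. Cells with follicular or C cell markers below the gates of these classes remained unassigned by construction. The excess over the non-epithelial classes is thus not independent of the gates.

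The genes that led these cells over follicular cells were of several cell types. Calca, the C cell hormone gene, stood at 10319 CPM against 94.2 CPM in follicular cells and the secretory granule gene Scg2 at 845 against 3.05 CPM. Bpifa1 and Scgb3a2, secreted proteins of airway epithelium, stood at 2395 against 5.31 CPM and 525 against 1.44 CPM, and Cbr2, a carbonyl reductase of lung, at 679 against 5.96 CPM. Bpifa1 came from 1 library: it stood at 10578 CPM in the 27 cells labelled day 5 and at 0 to 3.32 CPM in the others. Calca and Scg2 are C cell markers of the gates, so that C cells below their gate would raise both here. The identity of these cells was not tested.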

How the results depend on the processing

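Of 336 log2 differences of single genes between cell groups, 305 kept their direction and their side of the threshold, 17 passed it newly, 7 no longer passed it and 7 changed sign. Krt7 in follicular minus C cells changed to 0.014 without TMM factors and 0.012 with the upper limit of 10000 UMIs. In the Mia comparison Epcam changed to -0.077 with 4 or more Mia UMIs and -0.021 without thinning, Cdh1 to 0.045 with DESeq2, and leaving out 1 library gave -0.28 to 0.083 for Krt19 and -0.11 to 0.11 for Cdh1. Genes called fell from 5957 to 2460 (follicular minus C cell) and from 7073 to 3384 (C cell minus non-epithelial) under the upper limit, which leaves fewer cells. The 116 genes called in the Mia comparison became 46 to 110 without 1 library (46 without that labelled day 10), 31 without the library block, 46 with DESeq2, 68 with 1 or more and 72 with 4 or more Mia UMIs, and 796 without thinning. Of the 7 genes, the 2 called there became 1 to 4 without 1 library, 1 without the block, 1 with DESeq2 and 5 without thinning. Past 1.5-fold were 3 genes for the libraries labelled day 30 and day 5, 0 for day 30 and day 10, 0 for day 20 and day 5, 3 for day 10 and day 5, 2 for day 20 and day 10 and 2 for day 30 and day 20. Under the alternatives these became 0 for day 30 and day 10, 0 to 3 for day 20 and day 5, 3 for day 10 and day 5, 0 to 2 for day 20 and day 10 and 1 to 2 for day 30 and day 20 (Krt7 in place of Krt8 and Krt19 with at most 5% mitochondrial UMIs), while for day 30 and day 5 the same 3 genes passed, with Krt7 lower in addition under the upper limit. Genes with a UMI in at least 50% of follicular cells of every library numbered 3 at 2000 UMIs, 1 at 1000, 5 at 5000 and 7 without thinning. Where no test applied, 95 of 196 levels, 33 of 49 ratios and 24 of 28 shares of single genes moved by less than their interval. The share of calls that were higher was 61.5% in follicular minus C cell, 45.8% with DESeq2 and 71.4% without TMM factors. It was 49.9% and, with DESeq2, 61.3% in C cell minus non-epithelial, 58.8% and, without TMM factors, 68.6% in follicular minus non-epithelial, and 62.9%, 80.4% with DESeq2 and 36.7% without the filter in the Mia comparison. Other causes were not tested. The Mia comparison under the upper limit was not run, since under 10 Mia-positive cells remained in all but 1 library. Each fit was paired by library through its block, and the labels carry no replicate numbers for another pairing. The Mia comparison rests on 54, 25 and 14 positive cells.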

Other observations

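In C cells, the keratins did not all differ between libraries by the amounts seen in follicular cells. Krt18 had a log2 ratio of 0.06 in the library labelled day 30 over that labelled day 5 (counting interval -0.23 to 0.33, 173 and 279 UMIs), where follicular cells had 0.71 (0.67 to 0.75). Krt8 was at 0.47 in C cells (0.11 to 0.83) and 0.73 in follicular cells (0.69 to 0.76), with overlapping intervals. Krt7 was at 0.43 in C cells (0.08 to 0.77), where follicular cells had -0.31. Krt19 was at 2.78 in C cells (1.31 to 4.94, 18 and 4 UMIs), above the 1.14 of follicular cells, but 12 of the 18 UMIs came from 1 cell. Epcam was at 0.44 in C cells (0.33 to 0.54) and 0.27 in follicular cells. With 1 library per age these differences were not tested beyond counting error.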
